A study of Homo sapiens with 4 samples.

Results

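The genes described here are 10 regulators of entry into mitosis: the mitotic cyclins CCNA2, CCNB1 and CCNB2, the kinase CDK1 and its subunit CKS2, the activating phosphatases CDC25A, CDC25B and CDC25C, and the inhibitory kinases WEE1 and PKMYT1. They were chosen by symbol, as rows of the count table whose Ensembl identifier carries one of these names. Each symbol matched 1 row, so 10 of 25693 human genes make up the set, and all 10 passed the filter on low counts. Pooled by treatment, 9 of the 10 had fewer counts, scaled to the library total, after Nutlin-3 than after ethanol. The median log2 ratio of the 10 was -0.31, and CDC25B was level at 0.02. Of all 14830 genes that passed the filter, 7453 also had a log2 ratio below 0.

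CDK1 drives cells from G2 into mitosis. It is active only with a cyclin bound, and CKS2 is a small subunit that helps the complex reach phosphorylated substrates. WEE1 and PKMYT1 hold the complex off by phosphorylating CDK1 close to its ATP site, and the CDC25 phosphatases remove those phosphates and switch it on. Many genes of this step are transcribed late in the cell cycle through a promoter element called CHR, read by complexes built on the MuvB core, and by CCAAT boxes, read by NF-Y. p53 is known to lower such genes through p21, the product of CDKN1A.

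NGP is an established human neuroblastoma line with amplified MYCN. All cells had been synchronised by withdrawal of serum and were then kept for 24 h either with Nutlin-3, a compound that keeps MDM2 from binding p53, or with its solvent ethanol; no dose is given in the labels. There were 4 libraries from the ddSeq droplet device, 2 per treatment, which differed within a treatment in the dilution of ERCC spike-in RNA, at 1000-fold or 10000-fold. The columns of the table name the treatment and not the library, so each treatment is 1 pool of 250 columns with no replicate, and no test between treatments was possible. Intervals below are 95% exact intervals that cover counting error only.

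The ethanol pool held 1342134 human counts and the Nutlin-3 pool 1301232. Columns fell into a large class above 4000 counts, with 113 in each treatment, and a small class of 137. Of the 250 column names per treatment, 219 were found in both, among them the names of all 113 large columns. Since so many names recur, columns are not called cells here, and folds are given also by class and without shared names. The 7 markers of adrenergic neuroblastoma reported here (PHOX2A, HAND2, GATA3, ISL1, TH, DBH and MYCN) each had between 104 and 1140 counts per pool. Of 6 markers of other cell types, PTPRC, COL1A2 and PECAM1 were not listed in the table, and COL1A1, COL3A1 and EPCAM had between 5 and 47 counts.

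The promoters of the members are shown first, as a description of their sequence. Whether they bear on the counts of the members was not tested. RefSeq windows on GRCh38.p14, from 250 bases before to 50 bases after each start site, were given for 8 members, with 15 windows among them; WEE1 and PKMYT1 were not matched. The windows were searched on both strands for CCAAT and for 4 forms of the CHR, which are TTTGAA and TTCGAA and TTTAAA and CTTGAA. In the stretches of 30 bases below, written 5′ to 3′ along the gene, capitals mark the CHR form. Each of these 6 stretches overlaps an exon of a GENCODE 29 transcript of its gene, since starts differ between annotations.
CCNB1 at chr5:69167108-69167137, plus strand: agcagtgcggggTTTAAAtctgaggctagg
CCNB2 at chr15:59105105-59105134, plus strand: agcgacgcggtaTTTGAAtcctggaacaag
CCNA2 at chr4:121823894-121823923, minus strand: agtcgcgggataCTTGAActgcaagaacag
CDK1 at chr10:60778397-60778426, plus strand: ctgattggctgcTTTGAAagtctacgggct
CDC25C at chr5:138331817-138331846, minus strand: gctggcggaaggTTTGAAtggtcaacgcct
CDC25B at chr20:3796260-3796289, plus strand: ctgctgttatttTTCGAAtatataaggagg

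CKS2 carries TTTGAA on the opposite strand, so it reads TTCAAA along the gene. Its last 120 bases before the start site, at chr9:89311075-89311194 on the plus strand, are given whole to show the CHR together with the CCAAT boxes, all in capitals, with 1 CCAAT on each strand.
CKS2: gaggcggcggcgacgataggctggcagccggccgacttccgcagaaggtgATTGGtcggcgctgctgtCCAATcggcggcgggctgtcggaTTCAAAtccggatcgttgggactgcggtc

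At least 1 CHR form was present in 7 of the 8 members with a window, against 36.7% of all 27305 genes, and CCAAT in 8 of 8, against 39.7%. CDC25A held CCAAT boxes and none of the 4 CHR forms in its window. Counted to its first base, a CHR form began 28 bases before the start site in CCNA2, 29 in CCNB2 and CKS2, 30 in CCNB1 and at a start site of CDC25C, and 38 at a start site of CDC25B. No CHR form of CDK1 lay in that stretch. The nearest CCAAT upstream of it began 52 bases before the start in CKS2, 54 in CCNB2, 55 in CCNB1, 56 in CCNA2, 73 in CDC25B and 85 in CDC25C. A CHR that began 20 to 40 bases and a CCAAT that began 45 to 90 bases before the start occurred in 6 of the 8 members and in 0.63% of all genes, or 0.49% of 35116 windows. These limits were set after the positions had been seen, and CDC25B, CDC25C and CDK1 have several windows each. The windows of CDK1 held several CHR forms, and the printed one began 69 bases before its second start site. Another TTTGAA, not printed, began 13 bases before that start site. Which of these acts as the CHR of CDK1 was not tested, and the printed stretch is not put forward as that element. A match describes letters and not a bound site.

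CDK1 (ENSG00000170312, chromosome 10, 60778331 to 60794852), the kinase itself, had 226 counts in ethanol (interval 197 to 257) and 168 in Nutlin-3 (144 to 195). Scaled to a common library total (CPM), this was 168 in ethanol and 129 in Nutlin-3. The log2 ratio, Nutlin-3 to ethanol, was -0.38 (-0.68 to -0.09), a ratio of 0.768. Its partner CKS2 (ENSG00000123975, chromosome 9, 89311198 to 89316703) had 253 counts in ethanol (223 to 286) and 183 in Nutlin-3 (157 to 212), or 188 and 141 CPM. The log2 ratio of CKS2 was -0.42 (-0.70 to -0.14), the lowest of the 10. Both genes were lower in the Nutlin-3 pool. For CKS2 alone among the members the CPM intervals of the pools, 166 to 213 and 121 to 163, did not overlap. Overlap of CPM intervals was not counted for genes outside the set, so the gap is not read as particular to CKS2. In pooled counts, fewer cells in G2 or mitosis and less of an RNA per cell cannot be told apart.

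Cyclin B1, which forms the main mitotic complex with CDK1, is encoded by CCNB1 (ENSG00000134057, chromosome 5, 69167010 to 69178245). It had 222 counts in ethanol (194 to 253) and 165 in Nutlin-3 (141 to 192), with a log2 ratio of -0.38 (-0.68 to -0.08). CCNA2 (ENSG00000145386, chromosome 4, 121816444 to 121823933), whose product cyclin A2 acts with CDK2 in S phase and with CDK1 in G2, had 196 counts (170 to 225) and 149 (126 to 175). Its log2 ratio was -0.35 (-0.67 to -0.03). The value for CCNB2 (ENSG00000157456, chromosome 15, 59105078 to 59125045), the second B-type cyclin, was smaller at -0.24 (-0.56 to 0.08), from 185 counts in ethanol (159 to 214) and 152 in Nutlin-3 (129 to 178). All 3 cyclins had fewer counts in Nutlin-3, and the interval of CCNB2 included 0. A pseudogene, CCNB2P1, had 11 and 10 counts in ethanol and Nutlin-3. EXOSC9, which overlaps CCNA2 on the opposite strand, had 129 ethanol and 118 Nutlin-3 counts, and whether counting used strand is not given in the sources used here.

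**Figure D1:**
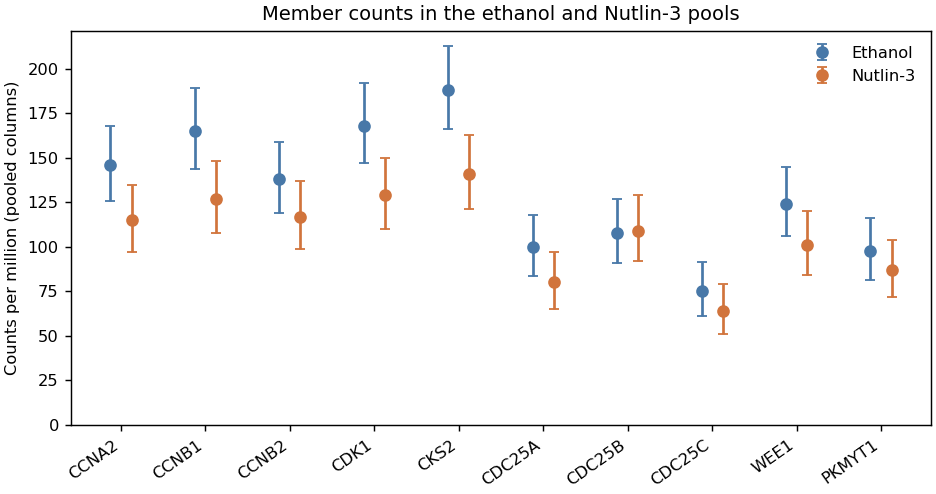
Scaled counts (CPM) of each member in the ethanol pool and the Nutlin-3 pool of 250 columns each, with points for the pooled value and bars for the 95% exact Poisson interval. Nutlin-3 lies below ethanol for 9 genes, and CDC25B is level at 108 and 109; counts are of 3′ ends, so heights are to be compared between treatments within a gene.

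The CDC25 phosphatases had values on both sides of 0. CDC25A (ENSG00000164045, chromosome 3, 48157146 to 48188402), which acts from G1/S onward as well as on CDK1, had 134 counts in ethanol (112 to 159) and 104 in Nutlin-3 (85 to 126). Its log2 ratio was -0.32 (-0.70 to 0.06). CDC25C (ENSG00000158402, chromosome 5, 138285265 to 138338355), the form best known for switching on CDK1 and cyclin B, had 101 counts (82.3 to 123) and 83 (66.1 to 103), a log2 ratio of -0.24 (-0.67 to 0.20). Counts of CDC25B (ENSG00000101224, chromosome 20, 3786772 to 3806121), thought to start CDK1 activation at the centrosome, were 145 (122 to 171) and 142 (120 to 167), and its log2 ratio was 0.02 (-0.33 to 0.36). All 3 intervals included 0 and overlapped each other, and whether CDC25B differed from the other two was not tested. FAM53C overlaps CDC25C on the opposite strand and had 120 and 115 counts.

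Of the kinases that hold CDK1 off, WEE1 (ENSG00000166483, chromosome 11, 9573681 to 9593457), a nuclear enzyme, had 167 counts in ethanol (143 to 194) and 131 in Nutlin-3 (110 to 155). The log2 ratio was -0.30 (-0.65 to 0.03). PKMYT1 (ENSG00000127564, chromosome 16, 2968024 to 2980539), its membrane-bound relative, had 131 counts (110 to 155) and 113 (93.1 to 136), with a log2 ratio of -0.17 (-0.54 to 0.21). Both were lower in Nutlin-3 with intervals that included 0. PAQR4 overlaps PKMYT1 on the opposite strand and had 98 and 85 counts.

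The balance of brakes and switches was compared as the share of WEE1 and PKMYT1 in the summed counts of these 2 kinases and the 3 CDC25 genes. It was 44.0% in ethanol (298 of 678 counts, Clopper-Pearson bounds 40.2 to 47.8) and 42.6% in Nutlin-3 (244 of 573, 38.5 to 46.7). The intervals of the shares overlapped widely between treatments. Large columns gave most of these counts, with shares of 42.7% in ethanol (253 of 593) and 43.2% in Nutlin-3 (221 of 512). Most values there were exactly 1, as given below, so these shares were largely set by the number of genes on each side. The pooled share could therefore hardly move, and whether the balance shifted cannot be read from it. In the small columns the share was 52.9% in ethanol (41.8 to 63.9) and 37.7% in Nutlin-3 (25.6 to 51.0), again overlapping, from 85 and 61 counts.

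Read as a set, 6 of the 10 members had a log2 ratio of at most -0.25 (CKS2, CCNB1, CDK1, CCNA2, CDC25A and WEE1) and 0 of 10 had one of at least 0.25. Among all 14830 genes that passed the filter, 16.0% were as low and 18.3% as high. Against the 6567 genes whose counts over both pools lay in the members' range of 184 to 436, the shares were 4.43% and 3.61%. The median of those 6567 genes was -0.01, and 3488 of them were below 0, as were 9 of the 10 members. The counting interval lay below 0 for 4 members, CDK1, CKS2, CCNB1 and CCNA2, against 1.01% of those genes. Without the shallowest columns this held for 2 members, CDK1 and CKS2, and in the large columns alone for CKS2 only. A longer list of G2/M genes that includes some of these members had been seen to lean lower in earlier results of these data, so the count describes the pools and is no independent support. Summed over the 10 genes, the counts were 1760 in ethanol and 1390 in Nutlin-3, a log2 ratio of -0.29 (-0.40 to -0.19).

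The log2 ratio of the summed members was lower in the small than in the large columns. In the large columns, which hold most of the counts, the sum was 1390 in ethanol and 1172 in Nutlin-3, a log2 ratio of -0.21 (-0.32 to -0.09). In the small columns it was 370 and 218, a log2 ratio of -0.62 (-0.87 to -0.38). The 2 intervals did not overlap, but they assume Poisson counts, which the large columns do not follow. Most values in the large columns were exactly 1 in both treatments, as given below. What this does to their ratio was not tested, nor was the difference between the classes. The members with the lowest values in the small columns were CCNB1, at -0.99 (-1.67 to -0.36) from 66 against 30 counts, and WEE1, at -0.89 (-1.90 to 0.02) from 31 against 15. CDK1 had 64 against 35 counts there, a log2 ratio of -0.72 (-1.37 to -0.12), and -0.24 (-0.59 to 0.10) in the large columns. CKS2 was at -0.67 (-1.30 to -0.07) in the small and -0.32 (-0.65 to -0.01) in the large columns.

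Some members had no more than a handful of counts in the small columns. CDC25C had 4 in ethanol and 5 in Nutlin-3, a log2 ratio of 0.43 with an interval from -1.76 to 2.79. CDC25A had 13 and 7, and PKMYT1 14 and 8, with intervals that included 0. CDC25B was the other gene above 0 there, at 0.31 (-0.55 to 1.19) from 23 against 26 counts. Past the fold threshold, 3 members were lower and 0 higher in the large columns, where 2.36% and 1.96% of genes in the members' count range were. In the small columns 8 were lower and 2 higher, where sparse counts put 32.9% and 34.2% of those genes past the threshold.

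**Figure D2:**
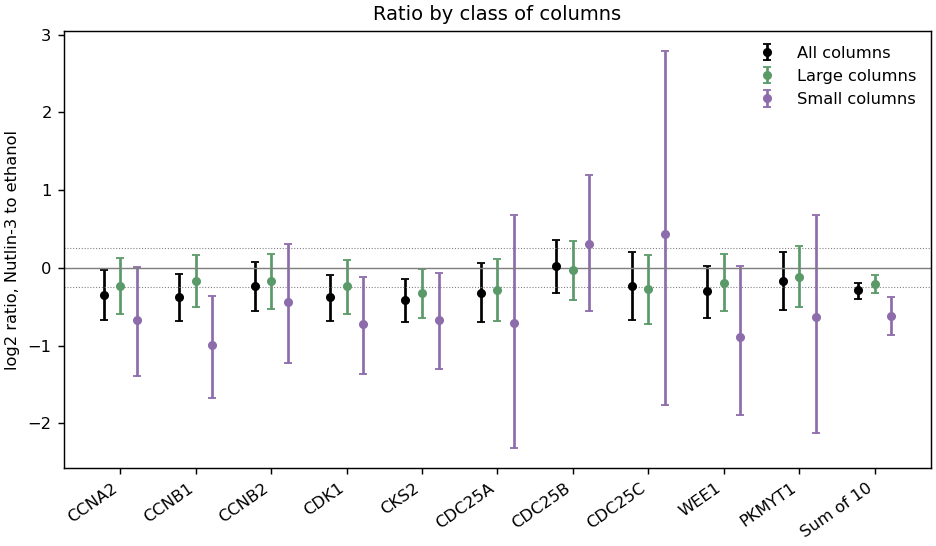
Log2 ratio of Nutlin-3 to ethanol for each member and for their sum, with 95% exact counting intervals, over all columns (black), large columns (green) and small columns (purple); dotted lines mark -0.25 and 0.25. The sum lies at -0.29, -0.21 and -0.62, and the widest interval belongs to CDC25C in the small columns, with 4 and 5 counts.

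Without the columns whose name occurs in both treatments, 31 small columns per treatment were left, with 19805 human counts in ethanol and 23060 in Nutlin-3. The 10 members then had 61 ethanol and 37 Nutlin-3 counts, a log2 ratio of -0.87 (-1.51 to -0.26). CCNB1 had 11 and 3 counts, CDK1 11 and 5, CKS2 10 and 7, and WEE1 7 and 1. CCNA2 had 8 against 7 counts, which after scaling is a log2 ratio of -0.34 because the Nutlin-3 pool is larger here, CCNB2 had 6 against 6 and CDC25B 3 against 5. Of the 7 members with more than 3 counts in either pool, 5 were past the threshold on the lower side and 1 on the higher side, against 35.9% and 43.2% of genes in the count range that met the same condition. CDC25A, CDC25C and PKMYT1 had at most 3 counts in each pool and are given no fold.

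In the large columns, where the log2 ratio of the sum was nearer 0 than in the small ones, the difference can be followed by counts per column. Most values there were exactly 1. Among genes with a mean of 0.6 to 1.7 counts per large column, 80.8% of values in ethanol and 80.0% in Nutlin-3 equalled 1, and the variance divided by the mean had a median of 0.170 and 0.183, where Poisson counts would give about 1. The members followed this pattern, with ratios from 0.0678 for PKMYT1 to 0.425 for CKS2 in ethanol and from 0.0428 for CDC25B to 0.312 for CDC25C in Nutlin-3. The intervals given here assume Poisson counts and so do not describe the spread between these columns.

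For CDK1, its subunit and the cyclins, the treatments differed in how many large columns held 2 or more counts. CKS2 had 2 or more in 55 of 113 ethanol columns and in 29 of 113 Nutlin-3 columns, with a highest value of 5 and 3. CDK1 reached 2 or more in 36 and 19 columns, CCNB1 in 32 and 19, CCNA2 in 30 and 9, and CCNB2 in 27 and 14. At 0 counts these 5 genes had at most 1 column in ethanol and at most 3 in Nutlin-3. For WEE1 the columns with 2 or more numbered 21 and 5, and for CDC25B 12 and 4. Such differences were not counted for other genes of the same count range, so these numbers are not read as particular to the members.

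For CDC25A and CDC25C the difference lay at 0 instead. CDC25A was missing from 1 large column in ethanol and from 23 in Nutlin-3, and 9 and 7 columns held 2 or more. CDC25C was missing from 17 and 35 columns, with 1 and 0 columns at 2 or more. PKMYT1 was missing from 2 and 10 columns. CDC25B, whose pooled value was level, was missing from 3 and 1. Columns at 0 were likewise not compared with those of other genes.

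**Figure D3:**
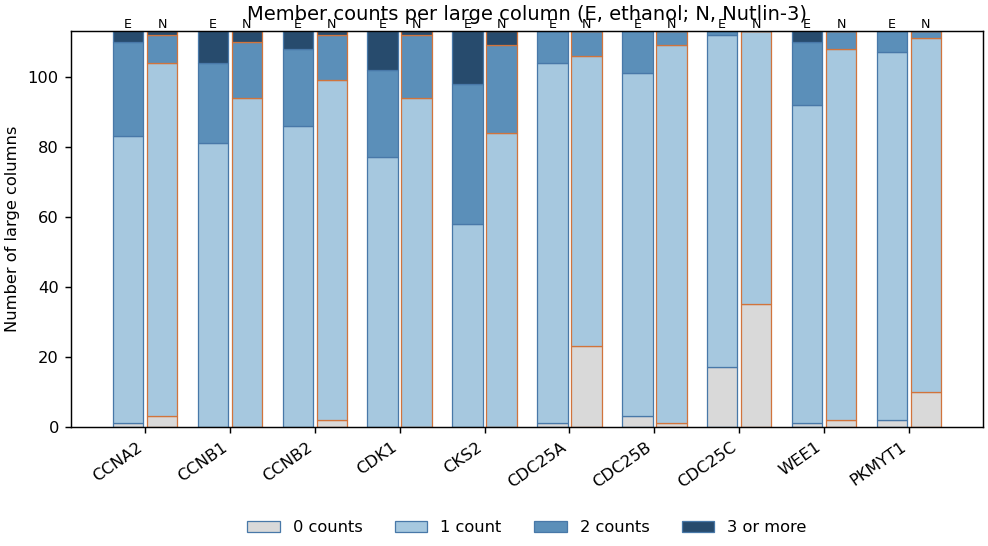
Number of the 113 large columns per treatment that held 0, 1, 2 or at least 3 counts of each member, with ethanol (E) on the left and Nutlin-3 (N) on the right of each pair. CKS2, CDK1 and the cyclins have more columns at 2 or above in ethanol, and CDC25A and CDC25C more columns at 0 in Nutlin-3 (23 against 1 and 35 against 17).

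All 113 large columns of one treatment share their names with those of the other, so they can be set side by side by name. What a shared name means is not given in the sources used here. Columns of the same name are therefore not known to be matched pairs, and the numbers are no paired comparison. Summed over the 10 members, the count was lower in the Nutlin-3 column for 85 names, equal for 14 and higher for 14. These counts are not scaled, and the human total of the column was itself lower in Nutlin-3 for 68 names and higher for 45. Taken gene by gene, a member was lower for a median of 28 names and higher for 8, where the 6567 genes of the same count range had medians of 15 and 12. More names lower than higher were found for 10 of 10 members and for 65.6% of those genes. Large ethanol columns held between 9 and 20 counts of the members, median 12, and large Nutlin-3 columns between 8 and 15, median 10, so the columns of the treatments overlapped. CKS2 was lower for 42 names, equal for 58 and higher for 13. For CDC25B the numbers were 11, 97 and 5. All 10 members were present at once in 94 of 113 ethanol columns and in 54 of 113 Nutlin-3 columns, and no such count was made for other sets of genes. Columns of a pool are not replicates, and these numbers describe the 2 pools.

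How often a member was seen was also counted after each column had been thinned at random to 700 counts, which left 194 ethanol and 187 Nutlin-3 columns and set aside 56 and 63 that were shallower. A mean of 1.17 members was seen per ethanol column (SD over columns 0.975) and 0.866 per Nutlin-3 column (SD 0.966). At least 1 member was present in 72.2% of ethanol columns (exact binomial interval 65.3 to 78.3) and in 55.1% of Nutlin-3 columns (47.7 to 62.3). These intervals treat the columns of a pool as independent, and the thinning was a single random draw. No such share was counted for other sets of genes, so the difference is not read as particular to the members. CDK1 was seen in 19.6% (14.2 to 25.9) and 12.8% (8.40 to 18.5), and CCNB1 in 18.0% (12.9 to 24.2) and 9.63% (5.81 to 14.8). WEE1 was seen in 16.0% (11.1 to 21.9) and 5.88% (2.97 to 10.3), and CCNA2 in 9.79% and 9.63%. Nearly every sighting at this depth is a single count, so no change in a single gene is read from these shares. Thinned to 350 counts, which kept 241 ethanol and 231 Nutlin-3 columns, the picture for these 2 genes turned, with WEE1 in 4.15% and 3.03% and CCNA2 in 9.13% and 4.33%. At least 1 member was then present in 45.2% (38.8 to 51.7) and 33.8% (27.7 to 40.3). Without thinning, over all 250 columns per treatment with median totals of 2294 and 2020.5, CDK1 was seen in 70.0% and 59.2% and at least 1 member in 92.4% and 82.8%. The line holds no cell type that lacks these genes, so what free RNA adds to these shares could not be measured.

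Other genes that act on CDK1 or on the same step were taken from 7 lists of 48 genes in all. The table held all 48, and of the 46 that passed the filter 16 were lower and 3 higher past the threshold, with a median log2 ratio of -0.14. Against the background share of 16.0% lower and 18.3% higher, the lists differed: 5 of the 7 had more genes lower than higher past the threshold, the CDK-activating kinase had none on either side and the p53-induced inhibitors had more higher. The members' own median of -0.31 was below that of each of these lists.

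The other cyclin and CDK1 partners had 4 of 4 filtered genes lower. CKS1B, the paralogue of CKS2, had 167 ethanol and 133 Nutlin-3 counts, a log2 ratio of -0.28 (-0.62 to 0.05). CDK2, the kinase bound by cyclin A in S phase, was at -0.28 (-0.73 to 0.15) from 102 against 81 counts. CCNA1, a cyclin A known mainly from the testis, was too rare to pass the filter, at 12 counts against 1, a log2 ratio of -3.01 (-8.96 to -0.78); it is named after its value was seen. The CDK-activating kinase, which phosphorylates the activation loop of CDK1, had 0 of 3 genes past the threshold, with CCNH at -0.11 (-0.48 to 0.27) and MNAT1 at -0.08 (-0.48 to 0.33).

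The list of kinases that act on the switches, which also holds BORA and CLSPN, had 3 of 7 genes lower and 0 higher. The checkpoint kinase gene CHEK1, whose product holds CDC25 proteins in check, had 111 ethanol and 62 Nutlin-3 counts, a log2 ratio of -0.79 (-1.27 to -0.33). CLSPN, which encodes the adaptor that lets ATR activate CHEK1, was at -0.67 (-1.13 to -0.22) from 110 against 67 counts. Both values lay below those of all 10 members, while PLK1 and AURKA, which promote CDK1 activation, were at -0.12 and -0.17. In the Greatwall arm, which protects CDK1 substrates from the phosphatase PP2A-B55, 2 of 5 were lower, with the kinase MASTL at -0.46 (-0.87 to -0.05) and the B55 subunit PPP2R2D at -0.32 (-0.84 to 0.19).

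The list for the anaphase-promoting complex, which ends CDK1 activity by marking cyclins for destruction, also holds regulators and ubiquitin-conjugating enzymes. In this list 3 of 12 genes were lower and 1 higher. The subunits past the threshold were ANAPC10 at -0.27 and ANAPC1 at 0.26. FBXO5, an inhibitor of the complex, was at -0.39 (-0.77 to -0.02), and UBE2C, its ubiquitin-conjugating enzyme, was at -0.34 (-0.59 to -0.09) from 299 against 229 counts. Among factors that transcribe G2/M genes 4 of 12 were lower and 0 higher. LIN54, the MuvB subunit that binds the CHR, was at -0.36 (-0.82 to 0.10) and FOXM1 at -0.35 (-0.73 to 0.03), while the NF-Y genes NFYA, NFYB and NFYC were at 0.05, -0.11 and -0.02. The p53-induced inhibitors went the other way, with 2 of 3 filtered genes higher. CDKN1A had 70 ethanol and 188 Nutlin-3 counts, a log2 ratio of 1.46 (1.07 to 1.89), RPRM was at 0.34 (-0.45 to 1.15), and GADD45A, at 0.14, was within the threshold.

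**Figure D4:**
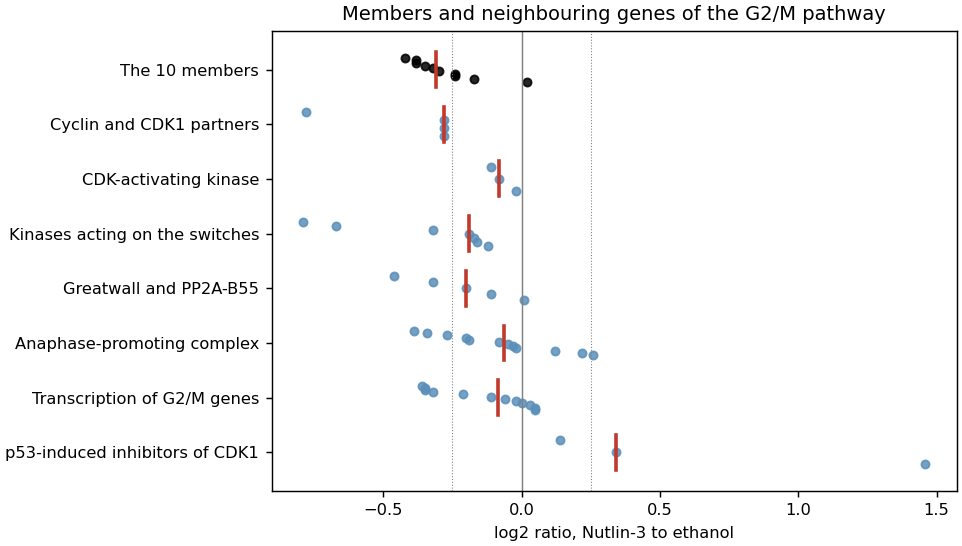
Log2 ratio of Nutlin-3 to ethanol for the 10 members (black) and for the 46 filtered genes of 7 lists around CDK1 (blue), 1 point per gene, with the median of each row in red and dotted lines at -0.25 and 0.25. The members lie between -0.42 and 0.02, the CDK-activating kinase near 0, and CDKN1A apart at 1.46.

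When ERCC counts served as the library size, the ratio dropped for all members by the same amount. ERCC counts numbered 2989 in ethanol against 4007 in Nutlin-3. The median of all filtered genes became -0.47. On that scale the sum of the members was at -0.76 (-0.87 to -0.66) and all 10 were below -0.25, as were 95.1% of the genes in their count range, with 0.0761% above 0.25. A change of library size shifts every gene alike, so the members' median, -0.78 on this scale, kept its distance from the median gene by construction. The mixture of the 2 spike-in dilutions in each pool is unknown, and its part in the shift was not tested.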

How the data were processed

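Single-cell RNA-seq of NGP cells was deposited by the authors as 1 table of raw counts (genes and 62 ERCC species in rows). Per the labels' protocols, the 3′ ends of polyadenylated RNA were sequenced from ddSeq droplets (SureCell WTA kit). For aligner, genome build, annotation, molecular tags and the choice of cells, the method is not given in the sources used here. Columns named treated were taken as Nutlin-3 and columns named untreated as ethanol.

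Each treatment was summed over its 250 columns, ERCC rows left out. The edgeR 4.0.16 filter (minimum count 10) kept 14830 genes, and its TMM factors were 0.9995 for Nutlin-3 and 1.0005 for ethanol, in R 4.3.3. The log2 ratio of Nutlin-3 to ethanol was taken after adding 0.5 to both sums. Clopper-Pearson bounds of the Nutlin-3 share gave its 95% interval, and sums have exact Poisson intervals. The calculation was tested on simulated Poisson sums only. These lack the narrow spread of counts between the large columns, so the simulation does not show how the intervals behave there. With 1 pool per treatment there was no test. The design also held an edgeR test over 4 libraries, which could not be run. Names and positions came from GENCODE 29 on GRCh38 and promoters from RefSeq on GRCh38.p14. The build the authors used need not be the same.

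The fold threshold was a log2 value of 0.25 in either direction. All members are named. From each pathway list the 2 genes with the largest change among those with at least 50 counts are named, and any further gene named was picked after its value was seen. The members, lists and thresholds were chosen with earlier results of these data known. No genes were sought by likeness of pattern, since 2 pools give too few values. Doublets were not called, as the cells are of a single line. Alternatives were DESeq2 1.42.0 size factors, ERCC scaling, no filter, column classes, depth (350 or all counts per column in place of 700) and a smaller added count. Of the cell type markers, 1 gene is not reported here.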

Additional observations from a re-analysis of the deposited data

How the results depend on the processing

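No paired analysis was possible because column names hold no library, leaving 1 pool per treatment. Tests with edgeR or DESeq2, a replicate block and fits that leave out a library were likewise not run. DESeq2 size factors, no filter, dropping the shallowest columns, thinning to the smaller total and a smaller added count used nearly the same counts. They left 50 of 50 member values within their first counting intervals, and the sum between -0.29 and -0.26. Such settings could hardly move the values, so this says little about how stable they are. The number of members whose interval lay below 0, which was 4, became 2 without the shallowest columns, as CCNA2 (-0.63 to 0.01) and CCNB1 (-0.61 to 0.01) reached past 0, and 1 with large columns alone. Thinning to 350 in place of 700 counts per column moved 15 of 20 shares of columns outside their first intervals. Fewer counts per column lower the chance of seeing a gene, so such a move follows from the setting and says little about stability. Values moved with the columns kept and with ERCC scaling, and the cause was not tested. Under ERCC scaling the sum was -0.76, the median of the members -0.78 and 10 members were lower, with all filtered genes at a median of -0.47. With large columns alone 3 members were lower. Small columns alone gave a sum of -0.62, a median of -0.67 and 2 members higher, with a share of WEE1 and PKMYT1 of 37.7% in Nutlin-3 and 52.9% in ethanol. Without shared names the sum was -0.87, the median of 7 members -0.64, 1 member was higher, and the share in ethanol was 60.0%, from 15 counts. Of the members past the threshold in the first setting, 0 changed sign under any alternative run. Members within the threshold were not part of that count, and some of them did change sign. CDC25C went from -0.24 to 0.43 in the small columns, from 4 and 5 counts, and CDC25B from 0.02 to -0.45 under ERCC scaling. Without thinning, the mean number of members seen per column was 5.08 in Nutlin-3 and 5.86 in ethanol, which follows depth. The narrowest counting interval of a member, that of CKS2, ran from -0.70 to -0.14, which limits what could be seen between members.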
